A study of Mus musculus with 12 samples.

Results

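The genes of platelet-derived growth factor (PDGF) signalling, the 4 ligand genes Pdgfa, Pdgfb, Pdgfc and Pdgfd and the 2 receptor genes Pdgfra and Pdgfrb, were followed in Schwann cells sorted from the sciatic nerve of young mice. They are 6 of the 25700 genes of the count table and their rows were found by their identifiers. All 6 passed the filter on low counts.

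RNA-seq by the Smart-Seq2 method, which amplifies cDNA from small amounts of RNA, was done on 12 libraries, 4 from each of 3 gates of a cell sorter. The mice were at postnatal day 5 (P5), on a C57bl/6J background, and all carried P0Cre-/+ : ReYFP Tg/+ : βAct-DsRed Tg/+. P0Cre expresses Cre recombinase from a promoter that is used in the Schwann cell lineage, ReYFP is a yellow fluorescent reporter that Cre switches on, and βAct-DsRed labels cells in general with a red protein. No group was treated, and every gate came from mice of this genotype. The allSC gate took all eYFP-positive cells, and the mSC and nmSC gates took those with high and with low side scatter, so they are enriched for myelinating and for not-myelinating Schwann cells. Each library came from the suspension of 1 of 4 mice, and libraries of different gates with the same subject number in the labels were taken to come from the same mouse. A gate defined by the reporter and by scatter can hold eYFP-positive cells of other kinds, and allSC is a mixture that holds cells of both other gates.

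PDGF ligands are secreted as dimers and act through receptor tyrosine kinases. PDGF-A and PDGF-C bind the receptor alpha encoded by Pdgfra, PDGF-D binds the receptor beta encoded by Pdgfrb, and PDGF-B binds both. In nerves, receptor beta is a usual marker of pericytes and receptor alpha of fibroblast-like cells, and PDGF-BB is known as part of the mixture of factors by which cultured Schwann cells keep each other alive.

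Pdgfc and Pdgfd encode the ligands that carry a CUB domain, which a protease removes outside the cell. Pdgfc was higher in mSC and Pdgfd in nmSC. For that reason the 250 bases before their start sites are shown, from RefSeq (GRCm38.p6), whose promoter table held 4 of the 6 genes. The windows are chr3:81036166-81036415 and chr9:6168236-6168485, both on the plus strand and written 5′ to 3′. The Pdgfd window ends 98 bases before the gene's start in GENCODE. Capitals mark matches, on either strand, to the short motifs named after the sequences.
Pdgfc: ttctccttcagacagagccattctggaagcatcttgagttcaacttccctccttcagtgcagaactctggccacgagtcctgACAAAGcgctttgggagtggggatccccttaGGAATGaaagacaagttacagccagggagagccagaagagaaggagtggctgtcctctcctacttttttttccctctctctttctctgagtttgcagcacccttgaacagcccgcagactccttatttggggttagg
Pdgfd: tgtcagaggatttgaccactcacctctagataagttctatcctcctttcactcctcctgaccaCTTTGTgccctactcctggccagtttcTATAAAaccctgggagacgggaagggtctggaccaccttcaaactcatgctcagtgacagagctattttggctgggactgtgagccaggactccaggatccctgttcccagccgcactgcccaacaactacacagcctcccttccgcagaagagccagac
Among all 32851 RefSeq windows of this length, the EGR motif GCGNGGGCG occurs in 4.70% on either strand. The SOX motif ACAAAG occurs in 16.5% of these windows, and its second form, spelled ACAATG here, in 10.7%. The TEAD motif, written as GGAATG, is found in 12.6% of windows. The letters of a TATA box, for which TATAAA was searched, are found in 12.4%, and those of SP1, for which GGGCGG was searched, in 32.7%. No searched motif overlapped with another in either window. The Pdgfc window held the first SOX form 168 bases and the TEAD letters 137 bases before the start. The Pdgfd window held the same SOX form on the minus strand 187 bases before the RefSeq start and the TATA box letters 160 bases before it. For Pdgfd these distances are not counted from the GENCODE start. This form was thus shared by a gene that was higher in mSC and a gene that was higher in nmSC.

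The genes lie on different chromosomes of the mouse genome except for a pair on chromosome 5 (GENCODE M21, build GRCm38). Pdgfa (ENSMUSG00000025856) spans chr5:138976014-138997370 on the minus strand and Pdgfra (ENSMUSG00000029231) chr5:75152292-75198215 on the plus strand. Pdgfb (ENSMUSG00000000489) spans chr15:79995874-80014977 on the minus strand, Pdgfc (ENSMUSG00000028019) chr3:81036416-81214040 on the plus strand, and Pdgfd (ENSMUSG00000032006) chr9:6168584-6378850 on the plus strand. Pdgfrb (ENSMUSG00000024620) spans chr18:61045150-61085061 on the plus strand. All are protein coding. The protocol did not mark strand, and annotated antisense genes share 813 exon bases with Pdgfa (6330403L08Rik), 147 with Pdgfc (Gm16000) and 456 with Pdgfra (Gm42802), so reads from these stretches cannot be assigned to a strand. Pdgfb, Pdgfd and Pdgfrb share no exon base with another gene.

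Library totals were 10092477 to 14482001 counts in allSC, 10777161 to 16918122 in mSC and 8180927 to 13077387 in nmSC, so that 3 counts, the limit that a count of 0 allows, correspond to 0.198 to 0.375 CPM (counts scaled to a common library size of 1000000). CPM here, this limit included, is relative to the library total scaled by the TMM factor, which was 0.744 to 0.871 in mSC and 1.16 to 1.28 in nmSC. Relative to these factors, the median of the log2 fold changes of all 18597 tested genes between mSC and nmSC was -0.16, and it was -0.73 when the library total alone was used. The Schwann cell gene Sox10 had a mean of 267 CPM in mSC and 266 CPM in nmSC. The myelin genes Mbp and Ncmap were higher in mSC, and Ngfr, Ncam1, L1cam, Mki67 and Top2a were all higher in nmSC. The mSC library of mouse 4 correlated least with the other libraries of its gate (mean r 0.975) and stood apart for 2 of the 6 genes, as given below.

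Pdgfa and Pdgfc, the ligands of receptor alpha, were higher in mSC than in nmSC, and so was Pdgfrb. Pdgfd, a ligand of receptor beta, was higher in nmSC. Pdgfb had more summed counts in nmSC but was close to the limit of detection, and Pdgfra was at a few CPM in both gates. By edgeR's quasi-likelihood test, 3 of the 6 genes were higher in mSC and 2 were lower, against 20.4% and 20.2% of all tested genes (40.5% in either direction). The library values of mSC and nmSC did not overlap for 4 of the 6 genes, and for 34.2% of all tested genes. Pdgfb is in these counts only with the limits given below, since it had at most 2 counts in an mSC library and entered the test through no mSC library. These are bulk libraries, in which fewer cells of a type and less RNA per cell cannot be told apart.

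**Figure D1:**
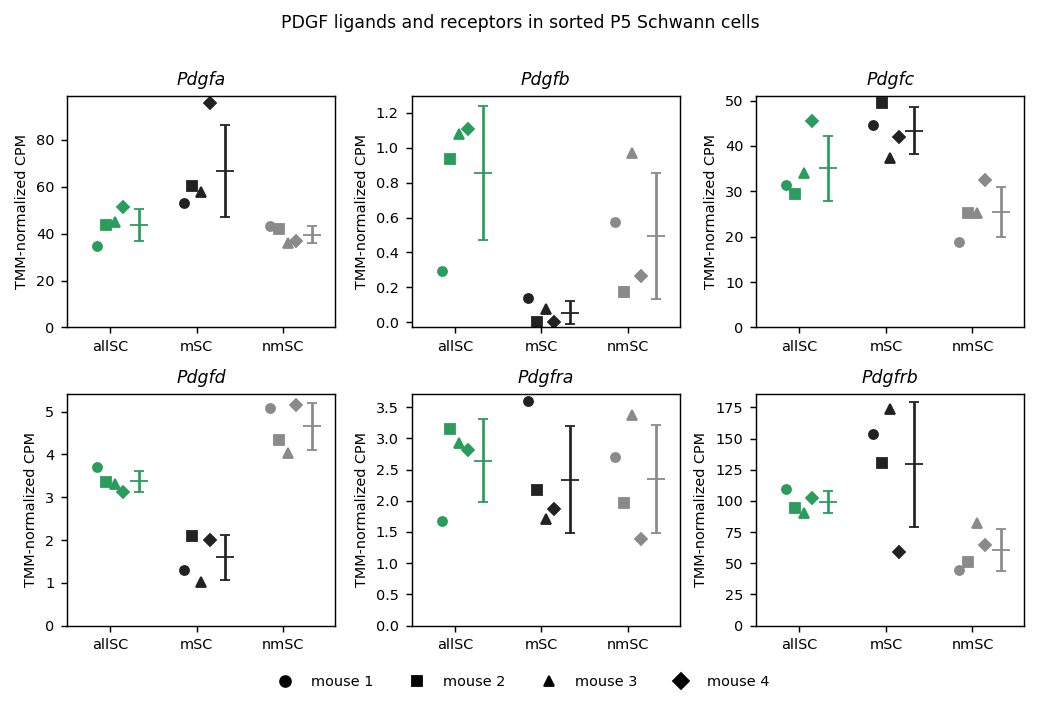
TMM-normalized CPM of the 6 genes in each of the 12 libraries, by gate, on linear axes. Symbols mark the 4 mice, and the bars beside them the mean ± SD of each gate. The mSC library of mouse 4 is the highest for Pdgfa (95.9 CPM) and the lowest of its gate for Pdgfrb (59.2 CPM).

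Pdgfa encodes the A chain, which binds receptor alpha. In mice 1 to 4 it measured 53.0, 60.4, 57.8 and 95.9 CPM in mSC, 43.5, 41.9, 36.1 and 36.7 CPM in nmSC, and 35.0, 43.8, 45.1 and 51.3 CPM in allSC. All mSC libraries lay above all nmSC and allSC libraries, while nmSC and allSC overlapped. The mean was 66.8 ± 19.6 CPM in mSC and 39.5 ± 3.69 CPM in nmSC (SD, n = 4), which is a log2 fold change of 0.75 ± 0.17 (SE; adjusted p = 0.00194, edgeR, Benjamini-Hochberg), and mSC was higher in 4 of 4 mice. The mSC library of mouse 4 set much of the SD of its gate. Leaving out single libraries gave 0.54 to 0.87 on the log2 scale, and the highest adjusted p was 0.00792 by edgeR. The call rests on the scaling of the libraries, since with library totals alone the log2 fold change was 0.16 (adjusted p = 0.376, edgeR) and with the totals without the 50 most abundant genes it was 0.37 (adjusted p = 0.0732, edgeR).

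Pdgfb encodes the B chain, which binds both receptors, and it was close to the limit of detection. The counts in mice 1 to 4 were 2, 0, 1 and 0 in mSC, 6, 2, 13 and 4 in nmSC, and 4, 14, 14 and 11 in allSC. In CPM the nmSC libraries lay between 0.170 and 0.972 and the mSC libraries between 0 and 0.136. These values did not overlap, but the mSC libraries at 0 allow up to 0.261 and 0.375 CPM, above the lowest nmSC library, which like the mSC library of mouse 1 held 2 counts, so separate levels were not established at this depth. Summed over the libraries, 3 counts stood against 25, a ratio of 7.74 in favour of nmSC relative to the TMM-scaled library totals (95% exact interval 2.36 to 40.1). The interval and the limits for a count of 0 cover counting error only, as PCR copies without molecular identifiers are not independent molecules. Pdgfb passed the filter on low counts through 3 allSC libraries and 1 nmSC library and through no mSC library, so the filter itself favoured a difference from mSC. The log2 fold change of -2.80 ± 0.86 had an adjusted p of 0.0146 by edgeR, and without the nmSC library of mouse 3, which holds 13 of the 25 counts, it was -2.22 (adjusted p = 0.0651, edgeR).

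Pdgfc encodes a CUB-domain ligand of receptor alpha, and it measured 44.6, 49.6, 37.3 and 42.1 CPM in mSC of mice 1 to 4. The nmSC libraries of these mice held 18.9, 25.3, 25.3 and 32.5 CPM and the allSC libraries 31.3, 29.4, 34.0 and 45.4 CPM. All mSC libraries lay above all nmSC libraries, and allSC overlapped with both. The means were 43.4 ± 5.12 CPM in mSC and 25.5 ± 5.55 CPM in nmSC (SD, n = 4). The log2 fold change was 0.76 ± 0.17 (SE; adjusted p = 0.00151, edgeR), close to that of Pdgfa, with mSC higher in 4 of 4 mice. It was 0.65 to 0.91 with each library left out in turn. With library totals alone it was 0.21 (adjusted p = 0.269, edgeR).

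Pdgfd, the CUB-domain ligand of receptor beta, showed the opposite order. It measured 1.29, 2.09, 1.01 and 2.00 CPM in mSC of mice 1 to 4, 5.10, 4.34, 4.04 and 5.15 CPM in nmSC, and 3.72, 3.35, 3.31 and 3.12 CPM in allSC. No gate overlapped with another, and allSC lay between mSC and nmSC in 4 of 4 mice. The mean was 1.60 ± 0.529 CPM in mSC and 4.66 ± 0.552 CPM in nmSC (SD, n = 4), from 13 to 24 counts per mSC library and 51 to 78 per nmSC library. Pdgfd was 2.96-fold higher in nmSC (log2 fold change -1.57 ± 0.27, adjusted p = 0.000109, edgeR). It kept this direction and call under every scaling tried, at -1.50 to -2.13 on the log2 scale.

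Pdgfra, the receptor of PDGF-A and PDGF-C, was low in all gates. It measured 3.60, 2.17, 1.71 and 1.87 CPM in mSC of mice 1 to 4, 2.69, 1.96, 3.37 and 1.39 CPM in nmSC, and 1.68, 3.15, 2.93 and 2.82 CPM in allSC. All 3 gates overlapped. Its log2 fold change from nmSC to mSC was 0.02, with a 95% interval of -0.65 to 0.68 (adjusted p = 0.969, edgeR). It was -0.53 with library totals alone, so its sign depends on the scaling.

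Pdgfrb, the receptor of PDGF-B and PDGF-D, had 462 to 2257 counts per library, more than Pdgfa in every library but the mSC library of mouse 4 (474 against 768). It measured 153, 131, 174 and 59.2 CPM in mSC of mice 1 to 4, 44.4, 51.4, 82.3 and 65.0 CPM in nmSC, and 110, 94.1, 90.1 and 102 CPM in allSC. The mSC libraries of mice 1 to 3 lay above all nmSC and allSC libraries, and the mSC library of mouse 4 lay among the nmSC libraries. In the allSC gate this mouse did not stand apart. From nmSC to mSC the log2 fold change was 1.09 ± 0.24 (SE; adjusted p = 0.00143, edgeR), with mSC higher in 3 of 4 mice. Leaving out single libraries gave 0.92 to 1.33 on the log2 scale, and the highest adjusted p was 0.00758 by edgeR. The value of 1.33 was that without the mSC library of mouse 4 (adjusted p = 6.85e-07, edgeR). With library totals alone the log2 fold change was 0.56 (adjusted p = 0.0630, edgeR).

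Because the scaling moved all genes together, the changes were also read against the median of all tested genes under the same scaling. Pdgfa lay 0.89 to 0.92 above that median on the log2 scale, Pdgfc 0.93 above it and Pdgfrb 1.25 to 1.29 above it, under all 4 scalings. Pdgfd lay at -1.40 relative to it. A scaling moves a gene and the median nearly alike, so these distances stay alike by construction and do not restore a call. They are differences between a gene and the median gene, and carry no test.

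**Figure D2:**
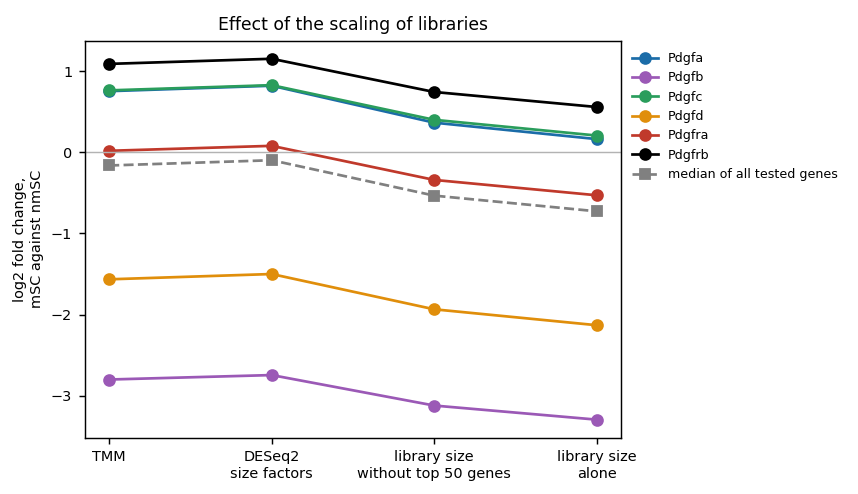
Log2 fold change from nmSC to mSC of the 6 genes (lines) and the median of all tested genes (dashed) under 4 ways of scaling the libraries. The median of all tested genes moves from -0.16 under TMM to -0.73 under library size alone, and the lines run in parallel with it.

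The allSC gate showed where the mixture of eYFP-positive cells lay. The 3 comparisons share libraries, so their values are given side by side and are not independent. Between allSC and mSC, Pdgfd was called higher in allSC, as was Pdgfb with the limits given below, and Pdgfa was called lower. Among all tested genes, 8.8% were higher in allSC and 8.76% lower (17.6% in all) by edgeR. The library values did not overlap for these 3 genes, and for 22.5% of all tested genes. The log2 fold changes were 3.56 ± 0.81 for Pdgfb (adjusted p = 0.00461, edgeR), 1.11 ± 0.27 for Pdgfd (adjusted p = 0.00782, edgeR) and -0.61 ± 0.17 for Pdgfa (adjusted p = 0.0205, edgeR). The value for Pdgfb rests on 43 counts against 3, and the gene passed the filter through 3 allSC libraries and no mSC library, so that it was tested because it was higher in allSC or nmSC. It was not tested with the 1 CPM filter, with thinned counts or with only the gates compared. With no filter beyond 1 count it was at 3.56 (adjusted p = 0.00549, edgeR). Pdgfa lost its call without the allSC library of mouse 1 (-0.52, adjusted p = 0.0734, edgeR) or of mouse 2 (-0.61, adjusted p = 0.0532, edgeR).

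Pdgfc and Pdgfrb, which were lower in allSC than in mSC on average, did not pass the test, at -0.31 (adjusted p = 0.219, edgeR) and -0.39 (adjusted p = 0.282, edgeR). Without the mSC library of mouse 4, Pdgfrb was lower in allSC at -0.65 (adjusted p = 0.00569, edgeR). Pdgfra was at 0.16, with a 95% interval of -0.51 to 0.82.

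Between allSC and nmSC, 0 of the 6 genes passed the test by edgeR, where 10.4% of all tested genes did (7.54% higher and 2.83% lower in allSC). At an unadjusted p under 0.05 the count was 2, Pdgfrb (log2 fold change 0.70, adjusted p = 0.0761, edgeR) and Pdgfc (0.45, adjusted p = 0.113, edgeR), and the DESeq2 Wald test called 1, Pdgfrb. Pdgfrb and Pdgfd, 2 of the 6 genes, did not overlap between these gates, and 19.3% of all tested genes did not.

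The position of allSC between the gates differed among the genes. On the scale of CPM, the allSC mean lay 53.3% of the way from the nmSC mean to the mSC mean for Pdgfc, 55.7% for Pdgfrb, 41.9% for Pdgfd and 15.5% for Pdgfa. For Pdgfb it lay outside this span, since allSC (0.854 ± 0.382 CPM) was above both nmSC (0.496 ± 0.362 CPM) and mSC (0.0534 ± 0.0661 CPM; SD, n = 4), and the allSC and nmSC libraries overlapped.

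**Figure D3:**
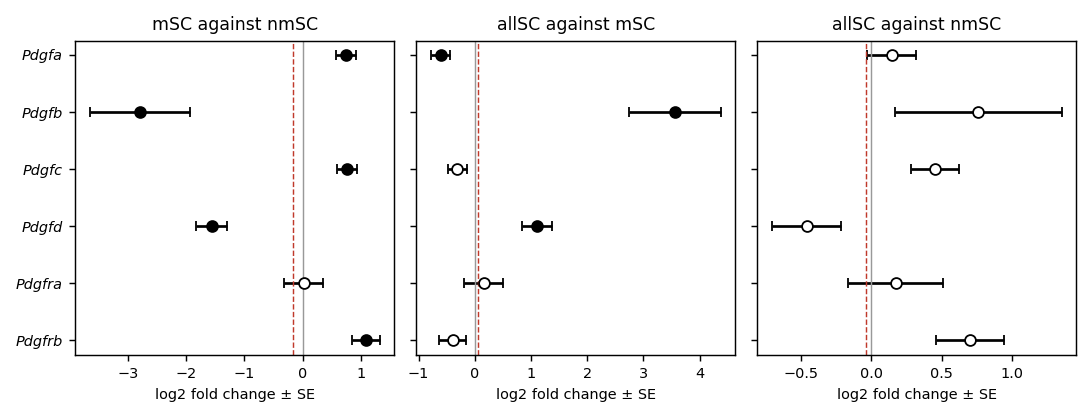
Log2 fold changes of the 6 genes with SE (bars) in the 3 comparisons between gates, with separate horizontal scales. Filled points have an adjusted p under 0.05 by edgeR, and the dashed line is the median of all tested genes, -0.16 between mSC and nmSC. All points are open between allSC and nmSC.

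The 4 mice could be compared within the gates. A test of the mouse numbers beyond gate by edgeR called 0 of the 6 genes (adjusted p = 0.997 for each), with 0 at an unadjusted p under 0.05, and 10 of 18597 tested genes (0.0538%), of which 3.55% had an unadjusted p under 0.05. The 6 genes were also at 0 calls with DESeq2 size factors, with library totals alone and with a filter of 1 CPM.

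Levels of different genes were compared per length, as RPKM, the CPM of the library total divided by the length of the union of exons in kilobases. Pdgfrb, Pdgfa and Pdgfc formed the upper group in every gate, and Pdgfra and Pdgfb had the lowest means with this length. In mSC the level was 19.6 ± 8.18 RPKM for Pdgfrb and 17.2 ± 3.77 RPKM for Pdgfa, whose libraries overlapped, then 6.97 ± 1.01 RPKM for Pdgfc. Pdgfd and Pdgfra, at 0.409 ± 0.124 and 0.193 ± 0.0818 RPKM, overlapped, and Pdgfb was at 0.0110 ± 0.0137 RPKM (SD, n = 4).

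In nmSC the order of the first 2 was turned, with Pdgfa at 15.4 ± 2.20 RPKM and Pdgfrb at 13.3 ± 3.06 RPKM, again overlapping. Pdgfc followed at 6.02 ± 1.11 RPKM and Pdgfd at 1.79 ± 0.246 RPKM, each apart from its neighbours. Pdgfra, at 0.283 ± 0.102 RPKM, and Pdgfb, at 0.143 ± 0.101 RPKM, overlapped (SD, n = 4).

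In allSC the 4 higher genes did not overlap in the order Pdgfrb (18.2 ± 1.46 RPKM), Pdgfa (14.2 ± 2.04 RPKM), Pdgfc (6.94 ± 1.28 RPKM) and Pdgfd (1.08 ± 0.0887 RPKM). Pdgfra (0.267 ± 0.0680 RPKM) and Pdgfb (0.207 ± 0.0921 RPKM) overlapped (SD, n = 4). Pdgfa was above Pdgfrb in allSC when the mean transcript length or the longest transcript was used in place of the union of exons, with a log2 ratio of Pdgfrb over Pdgfa of -1.12 and -0.22. With the mean transcript length Pdgfd was below Pdgfra in mSC, at a log2 ratio of -0.50.

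**Figure D4:**
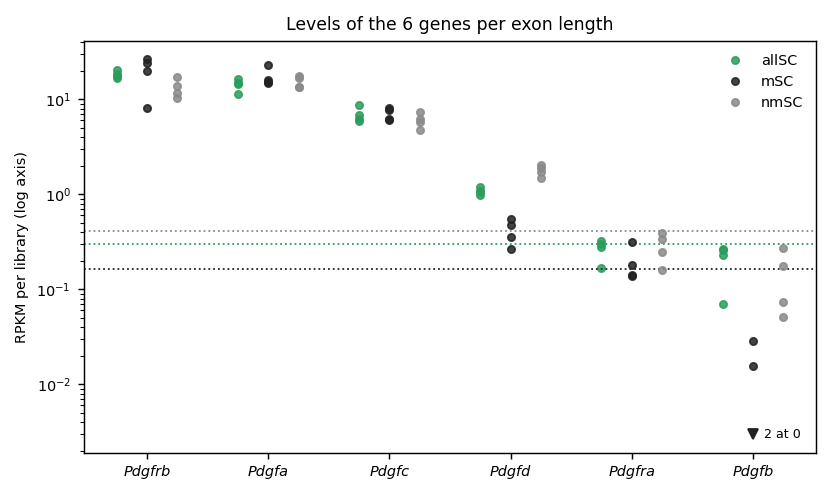
RPKM of the 6 genes in each library, by gate, on a log axis, with 2 mSC libraries at 0 for Pdgfb marked by a triangle. Dotted lines give the median level of 1453 olfactory and vomeronasal receptor genes in each gate. With the union of exons as length, which is used for all values here, Pdgfra and Pdgfb lie around or under these lines.

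Olfactory and vomeronasal receptor genes, which are used in sensory neurons of the nose, served to gauge how much signal genes without a known role in the nerve received. This set was added after the values of the 6 genes had been seen. Its median level over 1453 genes was 0.3005 RPKM in allSC, 0.162 RPKM in mSC and 0.409 RPKM in nmSC. In mSC, 167 of the 1013 tested were lower and 0 higher, against 20.2% and 20.4% of all tested genes (edgeR). Pdgfa, Pdgfc and Pdgfrb were above all of these genes in every gate. Pdgfd was above 94.4% to 99.9% of them, Pdgfra above 26.8% to 60.1% and Pdgfb above 2.62% to 28.2%. With the union of exons as length, the levels of Pdgfra and Pdgfb thus lay within the range of this set. For Pdgfra this depends on the length. In mSC it was at 0.139 to 0.313 RPKM with the union of exons and at 0.507 to 1.14 RPKM with the mean transcript length. The set was not measured with the mean transcript length. From nmSC to mSC the median log2 fold change of its tested genes was -0.72, and that of Pdgfb was -2.80. A cause shared by Pdgfb and the set was not tested.

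Within a library, ratios of counts do not depend on the scaling. The ratio of Pdgfd to Pdgfa counts was 0.0181 to 0.0352 in mSC, 0.0618 to 0.107 in allSC and 0.105 to 0.141 in nmSC, so that mSC stood below the other gates and allSC overlapped with nmSC only at its end. The ratio of Pdgfc to Pdgfa was 0.439 to 0.842 in mSC and 0.436 to 0.887 in nmSC, which nearly coincide. The ratio of Pdgfa to Pdgfrb was 0.333 to 1.62 in mSC and 0.439 to 0.978 in nmSC, and the highest value came from the mSC library of mouse 4.

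As shares of the ligand signal per length, Pdgfa made up 69.5 ± 5.99% in mSC, 65.7 ± 5.33% in nmSC and 63.2 ± 2.78% in allSC (SD, n = 4), and Pdgfc most of the rest. The share of Pdgfd was 1.65 ± 0.417% in mSC and 7.65 ± 0.728% in nmSC. Pdgfrb made up 96.8% to 99.5% of the receptor signal in all 12 libraries. All these shares use the union of exons and depend on that length. In the nmSC library of mouse 1, Pdgfra was at 0.341 RPKM with it and at 1.25 RPKM with the mean transcript length. Pdgfrb was at 10.3 and 10.4 RPKM there.

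The profile of each gene was compared with those of 9405 genes with a mean of at least 10 CPM, by Pearson's r of log2(CPM + 1) over the 12 libraries. The libraries share 3 gates and 4 mice, so r is a description only. The closest profiles were those of Pla2g12a, Nudt2 and AL731706.1 for Pdgfa (r = 0.962, 0.961 and 0.958) and of Rnf170 and Cops2 for Pdgfc (0.968 and 0.930). For Pdgfd they were Pcdh7, Fign and Gria4 (0.973, 0.970 and 0.969), which were all higher in nmSC on average. For Pdgfrb they were Col4a2, Qsox2 and Unc119b (0.985, 0.983 and 0.983), of which Col4a2 encodes a chain of the basal lamina collagen. For the low genes r was smaller, with Gpc2, Ddx19a and Pxylp1 for Pdgfb (0.792, 0.769 and 0.768) and Smg9, Pdss2 and Epc1 for Pdgfra (0.695, 0.680 and 0.660).

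Markers of other cells that use these genes were read beside them. Their counts stand against 20.4% of all tested genes higher in mSC and 20.2% lower by edgeR. Of 12 pericyte and vascular smooth muscle markers, 9 were tested, with 1 higher and 2 lower in mSC, and their summed level was 37.2 to 49.4 CPM in allSC, 44.8 to 52.9 in mSC and 40.04 to 52.5 in nmSC, so it overlapped between the gates. The sum holds Tagln, which was higher in mSC (24.9 against 4.73 CPM), and Cspg4, which was lower (13.6 against 27.1 CPM). The defining markers of that list had means of 0.793 to 2.07 CPM (Rgs5), 0.276 to 0.755 (Kcnj8), 0.832 to 1.09 (Acta2) and 2.13 to 4.48 (Myh11), and none was at 0 in all libraries. Myh11 was lower in mSC than in nmSC (2.13 against 4.48 CPM, adjusted p = 0.00507, edgeR), and Rgs5, Kcnj8 and Acta2 did not pass the test. The part of such cells in the Pdgfrb signal was not tested.

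Fibroblast-like cell markers (12 genes, 10 tested) numbered 2 higher and 3 lower in mSC. Their sum fell from 12690 to 18899 CPM in nmSC to 2134 to 4330 CPM in mSC, most of it collagen genes that Schwann cells also express. The defining markers Dcn and Lum had means of 8.49 to 12.8 and 2.18 to 5.01 CPM, and Col1a1 of 788 CPM in mSC and 3427 CPM in nmSC. Dcn and Lum were among the 5 tested markers that were not called between mSC and nmSC (adjusted p = 0.203 and 0.139, edgeR). Pdgfra had a mean of 2.34 CPM in mSC and 2.35 CPM in nmSC. The part of fibroblast-like cells in the Pdgfra signal was not tested.

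For Pdgfb, known from endothelial cells and platelets, the endothelial markers (10 genes, 8 tested) numbered 2 higher and 3 lower in mSC, with sums of 54.5 to 75.3 CPM in mSC and 20.6 to 35.4 in nmSC. The sum holds the 2 higher ones, Egfl7 (35.6 CPM in mSC against 9.27 CPM in nmSC) and Kdr (20.3 against 5.90 CPM). The 3 lower ones were Flt1, Tek and Pecam1. Pecam1 had a mean of 1.25 CPM in mSC and 2.45 in nmSC, and Cdh5 of 0.428 and 1.03. Platelet markers (5 genes, 2 tested) numbered 1 higher in mSC, and Pf4 and Ppbp were at 0.149 to 0.340 CPM on average. Immune markers (9 genes, 6 tested) numbered 0 higher and 1 lower, with Ptprc at 5.68 to 8.88 CPM and C1qa at 0.235 to 0.367. Perineurial markers (6 genes, 5 tested) numbered 1 higher and 3 lower in mSC. Of the defining ones, Cldn1 was lower in mSC (10.3 against 24.5 CPM) and Slc2a1 was higher (56.9 against 37.0 CPM). The part of all these cell types in the Pdgfb values was not tested.

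Genes that act with the family were read from lists by role, between mSC and nmSC. Among all tested genes, 20.4% were higher in mSC and 20.2% lower (40.5% in all, edgeR). Each list count is to be read against these shares. Of 15 related ligands and receptors of the VEGF, KIT and CSF1 groups, 13 were tested, 3 were higher in mSC and 7 lower, with a median log2 fold change of -1.25 against -0.16 for all tested genes. The higher ones were Il34, a ligand of the CSF1 receptor (102 against 25.6 CPM), Pgf, placental growth factor (16.96 against 1.91 CPM), and Kdr, a VEGF receptor (20.3 against 5.90 CPM). Among the lower ones were Kit (5.45 against 25.5 CPM), its ligand Kitl (1.81 against 12.4 CPM) and Csf1 (2.89 against 11.6 CPM).

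Of 14 genes that process or bind the ligands, 1 was higher and 4 were lower in mSC, with a median of -0.27. Plat, the tissue plasminogen activator that cleaves PDGF-C, was at 49.7 ± 6.55 CPM in mSC and 99.8 ± 19.8 CPM in nmSC (SD, n = 4; adjusted p = 2.46e-05, edgeR), while its substrate Pdgfc was higher in mSC. Plau and St14, whose products cleave PDGF-D, had means of 0.431 and 1.05 CPM in mSC and 0.738 and 1.82 CPM in nmSC and did not pass the test. Pcsk6, a proprotein convertase, was higher in mSC (3.87 against 1.95 CPM), and Cspg4, a proteoglycan that binds PDGF-A, and Thbs1 were lower.

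Of 26 genes next to the receptors, 8 were higher and 3 lower in mSC, with a median of 0.19. The part called in either direction was close to that of all tested genes (40.5%). The kinases Yes1 (log2 fold change 1.17) and Fyn (0.63) and the exchange factor Sos2 (0.71) were higher in mSC, and the phospholipase Plcg1 (-2.91), the adaptor Grb10 (-1.46) and the kinase Src (-1.70) were lower. This split depended on the scaling, since with library totals alone 1 gene was higher and 14 were lower. Without the nmSC library of mouse 1, 5 were higher.

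Of 13 genes of Ras, ERK and Akt, 10 were higher in mSC and 0 lower, with a median of 0.68, and with library totals alone 4 were higher and 2 lower. Araf, a RAF kinase, was at 217 ± 10.5 CPM in mSC and 117 ± 12.9 CPM in nmSC (SD, n = 4; adjusted p = 2.91e-06, edgeR).

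Of 16 attenuators, phosphatases, ubiquitin ligases and inhibitors that limit the pathway, 0 were higher and 10 lower in mSC, with a median of -0.63. Dusp6, an ERK phosphatase, was at 150 ± 60.4 CPM in mSC and 547 ± 23.8 CPM in nmSC (SD, n = 4; adjusted p = 8.12e-07, edgeR). Dusp4 (28.9 against 58.4 CPM) and Spry2, a Sprouty inhibitor (14.2 against 51.0 CPM), were lower as well, and with library totals alone all 16 were lower.

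Of 9 other survival factors and receptors that Schwann cells use in culture, 7 were tested, and 0 were higher and 3 lower in mSC, namely Ntrk3 (8.90 against 72.2 CPM), Igf1r (14.9 against 26.0 CPM) and Il6st (69.8 against 136 CPM).

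**Figure D5:**
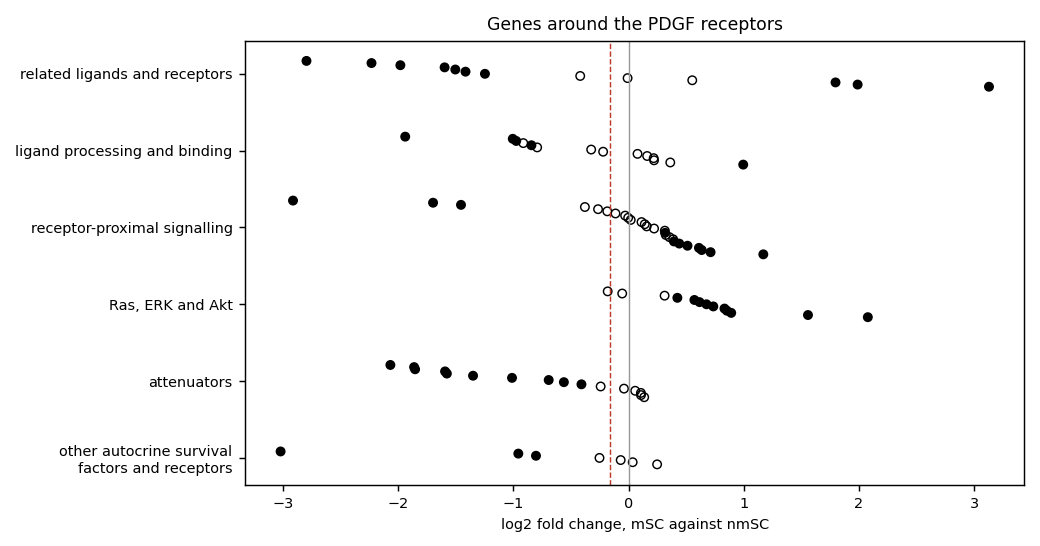
Log2 fold change from nmSC to mSC of each tested gene (point) in 6 lists around the PDGF receptors. Filled points have an adjusted p under 0.05 by edgeR, the dashed line is the median of all tested genes (-0.16), and points are spread vertically by rank. In the list of Ras, ERK and Akt all filled points lie to the right of 0, and among the attenuators all lie to the left.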

How the data were processed

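RNA was measured in 12 libraries of sorted Schwann cells, grouped by the gate and mouse in their titles. The authors aligned the reads with STAR 2.6.1c, counted them per gene with featureCounts and deposited the raw counts, without normalization; the labels name build GRCm38.p5, the paper's methods name a human build, and the options for strand and multi-mapping reads are not given in the sources used here. Symbols and exons came from GENCODE M21, which matched 25664 of 25700 identifiers, and 0 columns were left unused. From the counts, TMM factors, the expression filter by gate and quasi-likelihood tests in 1 model over all 12 libraries were computed with edgeR 4.0.16 in R 4.3.3, with Benjamini-Hochberg adjustment over 18597 tested genes and a threshold of 0.05. DESeq2 1.42.0, other scalings and filters, thinned counts, leaving out libraries and other gene lengths were alternatives. Mice are the replicates, and no 2 libraries of a gate were duplicates (chi-square per degree of freedom 4.41 to 115 in 18 pairs).

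Libraries were paired by mouse from the subject number, which the labels give alike to the libraries of all gates. Deviations from the gate mean correlated between the mSC and nmSC libraries of a mouse at -0.23, 0.06, 0.15 and -0.13. The named genes are the 6 genes, up to 3 genes in each direction with the smallest adjusted p of each list, the defining and gate markers and the 3 closest profiles of each gene. Some genes that this rule names are not reported here. Plau, St14 and the olfactory and vomeronasal set were added after their values were seen. The genes and lists were chosen with earlier results of these data known, so they are no independent evidence. On simulated counts with known changes between mSC and nmSC (3 draws, 17858 tested genes on average), the test recovered 56.4% of 2-fold changes. It recovered 87.9% of 4-fold changes, and 6.73% of its calls were false. The simulation changed a small random part of the genes, up or down at random. In the data, 40.5% of all tested genes were called between mSC and nmSC by edgeR. Whether the simulated rates hold for the calls on the 6 genes, some of which depend on the scaling, was not tested.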

Additional observations from a re-analysis of the deposited data

Results flagged for a closer look

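Of 93 groups of 4 libraries examined for a library far from the others, 1 was flagged, and chance flags about 1 in 20 groups. Kit measured 19.4 CPM in the allSC library of mouse 1 and 17.02 to 17.2 CPM in the other allSC libraries, a gap of a small absolute size.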

How the results depend on the processing

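With the mouse number as a replicate block no call on the 6 genes changed, and between mSC and nmSC the log2 fold change of Pdgfrb was 1.05 and that of Pdgfb -2.74 with the block. Between mSC and nmSC, library totals alone gave Pdgfa 0.16, Pdgfc 0.21 and Pdgfrb 0.56 and left 0 of the 6 genes higher in mSC, and totals without the 50 most abundant genes gave Pdgfa 0.37. Pdgfb was removed by the 1 CPM filter, by thinning and when only the gates compared were used, which left 1 gene lower. With libraries left out in turn, Pdgfb ranged from -3.62 to -2.22 and the count of genes lower from 1 to 2. Between allSC and mSC, Pdgfa was -0.28 with library totals, -0.38 without the 50 most abundant genes and -0.55 in a fit of only the gates compared, which left 0 genes lower in allSC. The count of genes higher in allSC was 1 with DESeq2, the 1 CPM filter, thinning or only the gates compared. With libraries left out, Pdgfa ranged from -0.73 to -0.41, Pdgfrb from -0.65 to -0.24 and the count lower from 0 to 2. Between allSC and nmSC, Pdgfrb was 0.72 with DESeq2 and 0.67 with only the gates compared, where 1 gene was higher. With libraries left out, it ranged from 0.58 to 0.89, Pdgfc from 0.31 to 0.60 and the count higher from 0 to 1. The causes were not tested.

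For the lists, DESeq2 size factors gave 2 processing genes higher. Library totals alone gave 0 processing genes higher and 8 lower, 1 gene next to the receptors higher and 14 lower, 4 Ras, ERK and Akt genes higher and 2 lower, 16 attenuators lower and 5 survival genes lower. Totals without the 50 most abundant genes gave 0 processing genes higher, 2 genes next to the receptors higher and 7 lower, and 6 Ras, ERK and Akt genes higher and 2 lower. With libraries left out (an alternative chosen after seeing the data), the counts higher ranged from 1 to 2 for processing, 5 to 10 next to the receptors and 0 to 1 for survival. The log2 ratio of the levels of Pdgfrb over Pdgfa was -1.12 in allSC and -1.30 in mSC with the mean transcript length and -0.22 in allSC with the longest transcript, and that of Pdgfa over Pdgfrb in nmSC was 1.69 and 0.80. Depth limits Pdgfb most, since a difference among 3 counts or fewer is not detectable here.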
